A study of Rattus norvegicus with 6 samples.

Results

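The surfactant proteins and the genes that mark alveolar type 2 cells were followed as 10 genes, Sftpa1, Sftpd, Sftpb, Sftpc, Abca3, Lpcat1, Slc34a2, Napsa, Lamp3 and Etv5. They were chosen by name from the 21655 named genes of the linear RNA table, and 49 of its 70376 transcripts carried one of these names. The lungs came from Sprague-Dawley (SD) rats that were 7 weeks old at the start. PF model rats received bleomycin, an agent that injures the lung epithelium and is widely used to induce pulmonary fibrosis, at 7 mg/kg by a single instillation into the trachea. Control rats received the same volume of saline, and both groups were sampled on day 28. There were 3 control and 3 PF model libraries of whole lung RNA depleted of rRNA, so every cell type of the lung contributed, and fewer type 2 cells could not be told apart from less RNA per cell. The strain, age and doses are those of the study's methods, and the labels say no more than that the libraries are separate samples, so that p-values measure the spread between these 6 libraries.

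Type 2 cells are cuboidal epithelial cells of the alveolus that make pulmonary surfactant, the film of phospholipid and protein that lowers surface tension at the air interface. The lipid and the small hydrophobic proteins are packed into lamellar bodies and secreted together, whereas the larger collectins bind lipid and microbes in the airspace. Type 2 cells also divide and give rise to type 1 cells after injury, which is why their genes are commonly examined in fibrotic lung.

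The promoters were examined because surfactant genes are known targets of the lung transcription factor NKX2-1. Of the 10 genes, 7 had an entry among the RefSeq promoters of build GRCr8, and Sftpc, Sftpd and Napsa had none. The 250 bases before the start site are shown for the genes with the highest levels among those 7, which were Sftpa1 (chr16:17042014-17042263, plus strand), Sftpb (chr4:105917338-105917587, plus strand) and Slc34a2 (chr14:62143073-62143322, minus strand). Capitals mark matches on either strand to the letters GCNCTNNAG of an NKX2-1 site, TGTTTG of a FOXA site, CCGGAA of an ETS site and TATAA of a TATA box.
Sftpa1: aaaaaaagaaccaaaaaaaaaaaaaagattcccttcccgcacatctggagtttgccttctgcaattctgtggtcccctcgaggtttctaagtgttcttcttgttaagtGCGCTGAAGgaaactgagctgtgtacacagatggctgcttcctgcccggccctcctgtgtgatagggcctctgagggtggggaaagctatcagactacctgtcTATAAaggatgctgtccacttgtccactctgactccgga
Sftpb: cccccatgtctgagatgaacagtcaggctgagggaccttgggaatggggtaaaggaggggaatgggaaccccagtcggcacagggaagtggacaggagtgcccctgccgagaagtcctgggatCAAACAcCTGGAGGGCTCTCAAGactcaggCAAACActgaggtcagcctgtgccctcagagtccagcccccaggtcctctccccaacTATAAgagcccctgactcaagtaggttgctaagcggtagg
Slc34a2: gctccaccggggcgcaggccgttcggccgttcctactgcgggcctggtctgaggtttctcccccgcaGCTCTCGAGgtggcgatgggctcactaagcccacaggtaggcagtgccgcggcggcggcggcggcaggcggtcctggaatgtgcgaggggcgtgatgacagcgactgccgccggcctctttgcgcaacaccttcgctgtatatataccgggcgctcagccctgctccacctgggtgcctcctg

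The NKX2-1 letters were found in these 3 promoters and in none of the other 4, and 13.7% of all 33469 RefSeq promoters of the same length held them. In Sftpb a FOXA match starts 127 bases before the start site, and the long run of capitals after it holds 2 NKX2-1 matches that start at 120 and 113 bases and share letters with each other. A further FOXA match of Sftpb starts at 97 bases. TATAA was present in Sftpa1, 39 bases before the start, and in Sftpb, 40 bases before it, against 24.0% of all promoters. The FOXA letters were also found in Lamp3 (15.5% of all promoters) and the ETS letters in Abca3 alone (12.6% of all promoters). The G and C content was 48.4% in Sftpa1, 58.8% in Sftpb and 68.8% in Slc34a2, against a median of 51.2% over all promoters. These matches describe the letters in the window and were not compared with binding data.

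Levels are given as FPKM, fragments scaled by transcript length and by the size of the library, summed over the transcripts of a gene. PF model 3 stood apart from the other libraries in some markers of airway secretory cells and heart muscle. Bpifa1, a protein secreted by airway epithelium, was listed at 95.8 FPKM in PF model 3 and at most 0.135 FPKM in the other 5 libraries. Scgb3a1 measured 47.0 FPKM there against 1.46 to 6.45 FPKM, and the mucin Muc5b 22.2 FPKM against 1.59 to 3.68 FPKM. The more abundant Scgb1a1 and Scgb3a2 were highest in control 3, at 7693 and 214 FPKM, against 6140 and 191 FPKM in PF model 3. Of the heart markers, Myh6 was listed at 5.11 FPKM in PF model 3 against at most 0.0339 FPKM, and Tnnt2 at 4.65 FPKM against 0.432 to 0.708 FPKM. Tnni3 was less distinct, at 2.27 FPKM against 0.487 to 1.96 FPKM. PF model 3 was also the highest library for Sftpc and for the summed level of the 10 genes. Without PF model 3 the difference of Sftpc was 0.14, against 0.28 with it, and that of Sftpa1 was 0.21, against 0.31. These are differences on the log2(FPKM + 1) scale, PF model minus control. Without it 0 of the 10 genes were called, 9 of them still had the higher mean in PF model and their median difference was 0.15. The part of other tissue in the levels of the 10 genes was not tested.

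Sftpc, Sftpa1 and Sftpb were among the most abundant RNAs of the lung in both groups, and none of the 10 passed a threshold between PF model and control. By mean FPKM the order was Sftpc, Sftpa1, Sftpb, Slc34a2, Abca3, Napsa, Lamp3, Lpcat1, Etv5 and Sftpd. Sftpc ranked between 14 and 22 among all genes in the 6 libraries, Sftpa1 between 23 and 37, and Sftpd, the least abundant, between 1558 and 2412. The ranges of Sftpa1 and Sftpb overlapped, with Sftpa1 above Sftpb in 3 of the 6 libraries. Ranges also overlapped between Abca3 and Napsa, between Napsa and Lamp3, between Lamp3 and Lpcat1, and between Etv5 and Sftpd. Sftpc stood above Sftpa1, Sftpb above Slc34a2, Slc34a2 above Abca3, and Lpcat1 above Etv5 in all 6 libraries.

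**Figure D1:**
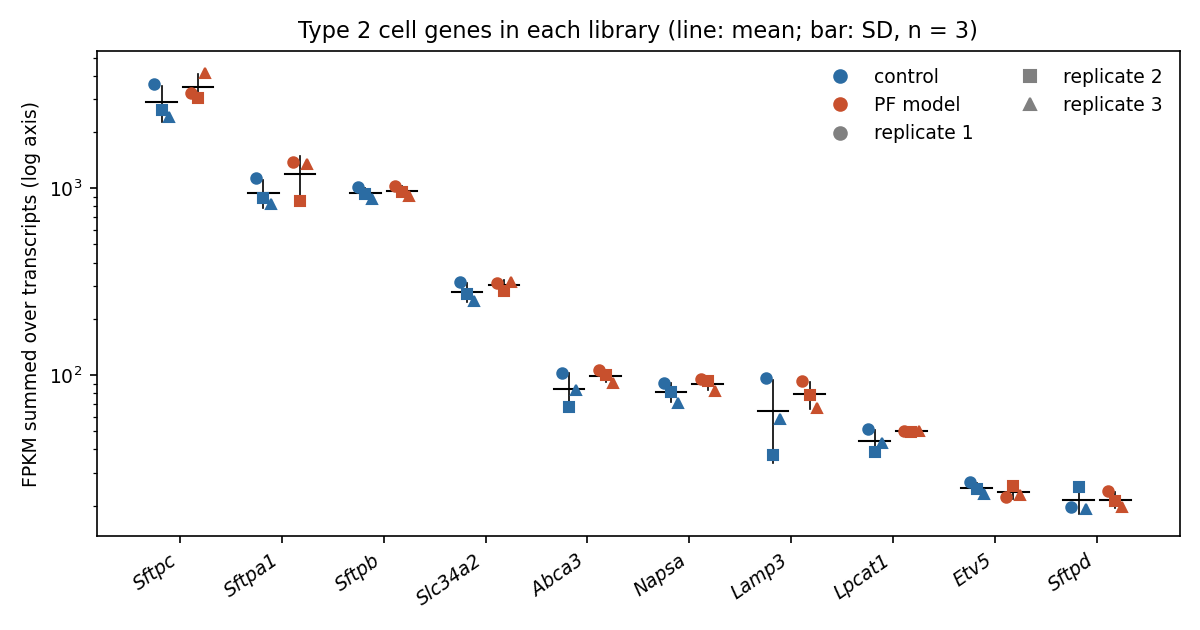
FPKM of the 10 type 2 cell genes on a log axis in each library, with control in blue and PF model in red, marker shapes for the replicate numbers, a line at the mean and a bar of 1 SD (n = 3). In each gene the points of the groups overlap, and the widest spread relative to the mean is that of Lamp3 in control, from 37.2 to 96.5.

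A gene was called when the unadjusted p of limma was at most 0.05 and the ratio of group means was at least 1 on the log2 scale. None of the 10 genes was called, while 1.52% of the 19645 genes tested were called, 0.662% as higher and 0.855% as lower in PF model. Before the fold threshold, 0 of the 10 genes reached a p of 0.05 in limma, against 4.91% of all genes, and the F test on untransformed FPKM also gave 0 of 10. No adjusted p of limma fell below 0.05 for these genes, against 0.0102% of all genes, and the groups overlapped in all 10, whereas they were apart in 10.7% of all genes. The mean of log2(FPKM + 1) was higher in PF model for 9 of the 10 genes, Etv5 being the exception, and for 47.5% of all genes. The count was 7 to 9 when each library was left out in turn, 10 with TPM (FPKM rescaled to the same total in each library), 8 with transcripts weighted by length and 7 with annotated transcripts only. The median difference, PF model minus control, was 0.16 over the 10 genes and -0.0072 over all genes tested. The 10 genes were read in the same libraries, so their directions are not 10 separate observations.

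The hydrophobic proteins Sftpb and Sftpc spread the lipid film, and Sftpb is also needed to form lamellar bodies. Sftpc measured 3594, 2635 and 2410 FPKM in control 1 to 3 and 3226, 3026 and 4146 FPKM in PF model 1 to 3. The highest library was PF model 3, but control 1 lay above the other PF model libraries. On the log2(FPKM + 1) scale used for all differences here, Sftpc differed by 0.28 ± 0.37 (SE), a fold of 1.21 with a 95% interval from 0.653 to 2.24, and an adjusted p of 0.950 in limma. Sftpb measured 1012, 934 and 881 FPKM in control and 1023, 960 and 903 FPKM in PF model. The groups were nearly superimposed, control having a mean of 942 ± 66.0 (SD, n = 3) and PF model one of 962 ± 59.6 (SD, n = 3). The fold of Sftpb was 1.02, with a 95% interval from 0.775 to 1.35 and an adjusted p of 0.995 in limma.

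The collectins Sftpa1 and Sftpd are secreted lectins of innate defence, and both genes lie on chromosome 16. Sftpa1 measured 1130, 892 and 825 FPKM in control and 1383, 850 and 1355 FPKM in PF model. PF model 1 and PF model 3 were above every control library, while PF model 2 lay between the lower controls. The difference of Sftpa1 was 0.31 ± 0.27 (SE), a fold of 1.24 (95% interval 0.797 to 1.93), with an adjusted p of 0.933 in limma. Sftpd was far less abundant, with 19.6, 25.3 and 19.3 FPKM in control and 23.9, 21.1 and 19.7 FPKM in PF model. Its fold was 1.01 (95% interval 0.814 to 1.26), and its highest library was control 2.

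Abca3, which carries phospholipid into the lamellar body, and Lpcat1, which makes the saturated phosphatidylcholine of surfactant, were lowest in control 2. Abca3 measured 103, 67.4 and 83.3 FPKM in control and 107, 99.8 and 91.2 FPKM in PF model. Its fold was 1.19 (95% interval 0.908 to 1.55), with an adjusted p of 0.933 in limma. Lpcat1 measured 51.2, 38.9 and 43.6 FPKM in control and 50.2, 49.6 and 50.3 FPKM in PF model. The PF model libraries of Lpcat1 were almost equal, but control 1 was higher than all of them. The fold of Lpcat1 was 1.13 (95% interval 0.943 to 1.35), with an adjusted p of 0.933 in limma.

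Slc34a2, the sodium-dependent phosphate carrier that recovers phosphate from surfactant, measured 315, 273 and 248 FPKM in control and 311, 283 and 317 FPKM in PF model. Its fold was 1.09 (95% interval 0.888 to 1.35). Napsa, an aspartic protease that processes the Sftpb precursor, measured 91.1, 81.6 and 71.3 FPKM in control and 95.1, 92.5 and 82.4 FPKM in PF model. Both genes were lowest in control 3, and Napsa had a fold of 1.11 (95% interval 0.918 to 1.34). Lamp3, a membrane glycoprotein of lamellar bodies, had the widest spread, with 96.5, 37.2 and 57.9 FPKM in control and 93.0, 78.0 and 66.7 FPKM in PF model. The difference of Lamp3, 0.40 ± 0.33 (SE), was the largest of the 10 genes, and its adjusted p in limma was 0.933. Without control 2 the difference of Lamp3 was 0.069, that of Abca3 changed from 0.25 to 0.094 and that of Lpcat1 from 0.17 to 0.081. Without control 1 they were 0.74 for Lamp3, 0.40 for Abca3 and 0.27 for Lpcat1.

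Etv5, an ETS transcription factor that acts downstream of FGF signalling and maintains type 2 cells, was the only one of the 10 with a lower mean in PF model. It measured 26.7, 24.6 and 23.2 FPKM in control and 22.4, 25.6 and 22.8 FPKM in PF model. The groups of Etv5 overlapped, and its fold was 0.951 (95% interval 0.820 to 1.10) with an adjusted p of 0.944 in limma. With TPM the difference of Etv5 changed from -0.073 to 0.0090.

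The intervals limit how large a change these libraries allow. For all 10 genes the 95% interval excluded a fall by 2-fold, the lowest bound being 0.653 for Sftpc. For 8 of them it also excluded a rise by 2-fold, and for Sftpc and Lamp3 it did not, with upper bounds of 2.24 and 2.29. These limits hold for the plain sum over transcripts. With transcripts weighted by length the fall was excluded for 9 genes, and the bound of Sftpc was 0.307. With annotated transcripts only it was excluded for 7, the bounds being 0.118 for Sftpa1, 0.323 for Sftpd and 0.466 for Lamp3. Sftpc has 1 transcript, so its FPKM were the same in each way, and only the spread that limma assigned to it moved. Its SE was 0.27 with annotated transcripts only, 0.37 with the plain sum, 0.82 with transcripts weighted by length and 1.12 in the fit of transcripts. With annotated transcripts only, its 95% interval of the fold ran from 0.758 to 1.93. In the fit of transcripts its log2 interval ran from -2.49 to 3.04, so a 2-fold fall was not excluded. With annotated transcripts only, the rise was excluded for 6 genes. Each gene rested on an estimated 4846 to 173892 reads per library.

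**Figure D2:**
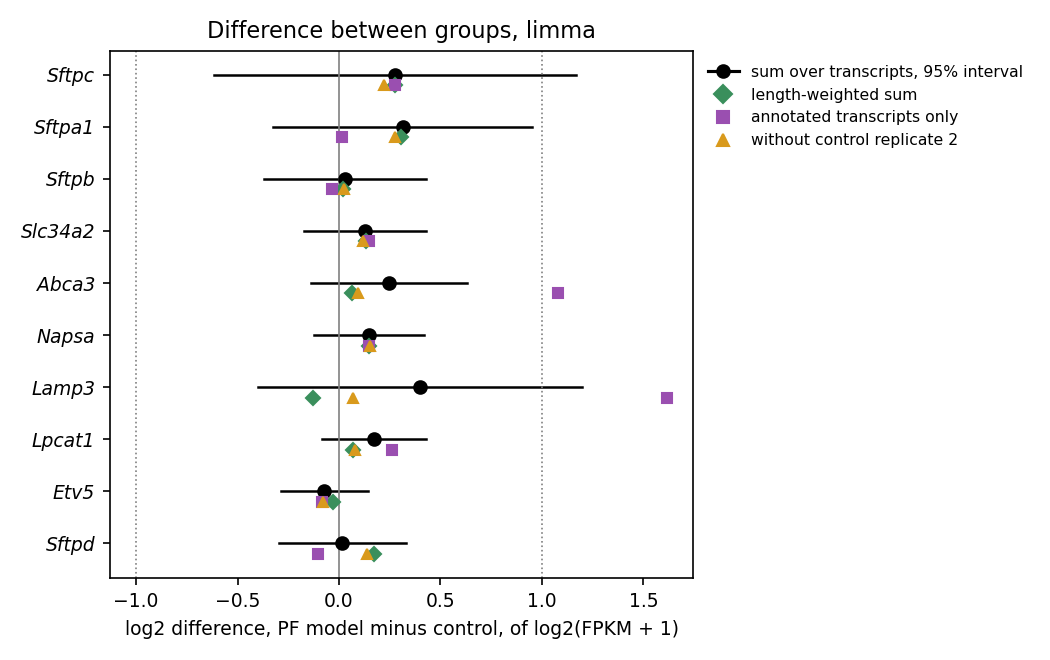
Difference of each gene on the log2(FPKM + 1) scale, PF model minus control, with the 95% interval of limma as a black line, and the value with transcripts weighted by length, with annotated transcripts only and without control 2 as coloured marks. Every black interval includes 0, and the coloured marks lie farthest from the black point for Lamp3, from -0.13 to 1.62.

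Leaving out each library in turn, an unadjusted p of at most 0.05 appeared only without control 1, for 3 of the 10 genes. Without it, limma gave a p of 0.0199 for Lamp3, 0.0233 for Lpcat1 and 0.0260 for Abca3, with an adjusted p of 0.894 for each, and none reached the fold threshold. Over all genes, calls also rose without control 1, from 298 to 386. The share of all genes with such a p in that fit is not given here, so the 3 genes cannot be set against it. Libraries of the same group differed across many of the 10 genes. In control 3, 6 of them were at their lowest level of the 6 libraries, and in control 2, 3 of them were, while control 1 held the highest level of 3 and PF model 1 of 4. Together the 10 genes made up 1.16%, 0.838% and 0.899% of all FPKM in control 1 to 3 and 1.18%, 1.04% and 1.38% in PF model 1 to 3. The share in control 1 lay within the range of the PF model libraries, so the groups overlapped in this sum as well.

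Sftpd and Etv5 departed from the others in this shared course. With the log2(FPKM + 1) of each gene standardised over the 6 libraries, the Euclidean distance to the mean course of the 10 genes was 2.70 for Sftpd and 2.44 for Etv5, and between 1.08 and 1.57 for the other 8. Among 8716 further genes with a mean of at least 5 FPKM, the closest to the mean course were Svil (0.751), Gcn1l1 (0.761), Ilk (0.774), Car5b (0.810) and Arf1 (0.812), against a median distance of 2.68. Svil codes for supervillin, Ilk for integrin-linked kinase, Car5b for a mitochondrial carbonic anhydrase and Arf1 for a small GTPase of vesicle transport. Of these, Svil measured 27.5, 22.6 and 20.5 FPKM in control and 26.8, 25.0 and 24.8 FPKM in PF model.

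The transcripts of a gene were divided differently between libraries, most of all for Lamp3, Sftpa1, Sftpd and Abca3. The share of the leading transcript of each spanned 88.5, 65.8, 63.4 and 51.8 percentage points over the 6 libraries, and at most 13.6 in the other genes with more than 1 transcript. Of the 49 transcripts, 11 were annotated in Ensembl and 38 were assembled by the authors from the reads. Sftpc and Napsa had an annotated transcript only, whereas between 91.7% and 99.8% of the FPKM of Sftpa1 fell on assembled transcripts. Of the 46 transcripts that were above 0 in at least 3 libraries and could be tested, 1 was called in limma, as higher in PF model, and 0 reached an adjusted p of 0.05. Of the 64867 transcripts tested in all, 2.98% were called, 1.22% as higher and 1.76% as lower, and 0.0277% reached that adjusted p. The mean was higher in PF model for 26 of the 46, against 44.6% of all. An unadjusted p of at most 0.05 was found for 2 of the 46, against 4.53% of all, and the groups were apart for 5 of the 46, against 10.4% of all.

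The called transcript was MSTRG.13810.3 of Sftpd, an assembled form with 7 exons and 12296 bases. It measured 3.03, 1.29 and 0.808 FPKM in control and 4.21, 6.37 and 3.85 FPKM in PF model. All PF model libraries were above all control libraries, and the difference was 1.16 ± 0.34 (SE) with a p of 0.0158 and an adjusted p of 0.945 in limma. Without PF model 2 the p in limma was 0.0522 and the call was lost, while MSTRG.11586.1 of Slc34a2 was called as lower. Without control 1, MSTRG.13810.4 of Sftpd and the annotated transcript of Lamp3 were called as higher as well. PF model 2 was also unlike the others in the commonest form of Sftpd, MSTRG.13810.6, which measured 7.55, 13.7 and 12.2 FPKM in control, 9.61 and 7.25 FPKM in PF model 1 and 3, and was listed at 0 in PF model 2. There another form, MSTRG.13810.10, measured 3.20 FPKM, and it was at most 0.0175 FPKM in the other libraries. The other transcript with a p of at most 0.05 was MSTRG.4853.11 of Abca3, with 5.36, 6.01 and 5.72 FPKM in control and 3.77, 4.97 and 4.59 FPKM in PF model. Its difference of -0.31 ± 0.13 (SE) had an adjusted p of 0.945 in limma and did not reach the fold threshold. The annotated Lpcat1 transcript, ENSRNOT00000024111, was apart as well, with 28.2, 18.8 and 27.0 FPKM in control and 29.0, 28.4 and 30.7 FPKM in PF model, and its p in limma was 0.167.

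Sftpa1 was divided between a pair of assembled transcripts of similar length, MSTRG.13806.1 with 1861 bases and MSTRG.13806.2 with 1824 bases. The first took 72.6%, 80.3% and 19.6% of the gene's FPKM in control and 18.3%, 68.4% and 84.1% in PF model. Control 3 and PF model 1 thus used mostly the second, and the other 4 libraries mostly the first. Control had a mean of 57.5% ± 33.0 (SD, n = 3) and PF model one of 56.9% ± 34.4 (SD, n = 3), with p = 0.9 in a two-sided exact permutation test. With 3 libraries against 3 this test allows no p below 0.1. An antisense transcript at the Sftpa1 locus, MSTRG.13807.1, was listed above 0 in PF model 1 only, at 14.9 FPKM.

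Control 2 differed from the other libraries in Lamp3 and Abca3. The annotated Lamp3 transcript, with 1961 bases, took 95.8%, 8.61% and 66.0% of the gene's FPKM in control and 95.7%, 94.9% and 97.1% in PF model (p = 0.3, exact permutation test). In control 2 most of Lamp3 was given to the assembled MSTRG.8224.3, a form of 4836 bases, at 27.2 FPKM, and in control 3 MSTRG.8224.2 was listed at 19.1 FPKM and at 0 in every other library. The estimated reads of Lamp3 were 9322, 7278 and 8306 in control and 9395, 7224 and 6270 in PF model. By these reads, which are not scaled for library size, control 2 was not the lowest library, although it was the lowest by FPKM. With transcripts weighted by length, Lamp3 measured 10.4 FPKM in control 2, against 8.29 to 12.2 FPKM elsewhere. With transcripts weighted by length the difference of Lamp3 was -0.13, and with the annotated transcript alone it was 1.62.

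The main annotated Abca3 transcript, ENSRNOT00000079700, took 45.3%, 2.54% and 40.0% of the gene's FPKM in control and 54.3%, 45.0% and 39.8% in PF model (p = 0.5, exact permutation test). In control 2 it measured 1.71 FPKM, and MSTRG.4853.4, an assembled form of 14028 bases, measured 12.7 FPKM there and at most 0.117 FPKM elsewhere. The estimated reads of Abca3 in control 2 were 26526, against 28855 to 34545 in the other libraries, and are not scaled for library size. With transcripts weighted by length, Abca3 measured 5.60 FPKM in control 2, above the 5.37 FPKM of control 3. The difference of Abca3 was 0.065 with transcripts weighted by length and 1.08 with annotated transcripts only. For both genes the size of the difference moved with the way transcripts were combined, and neither gene passed the thresholds in any of these ways.

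**Figure D3:**
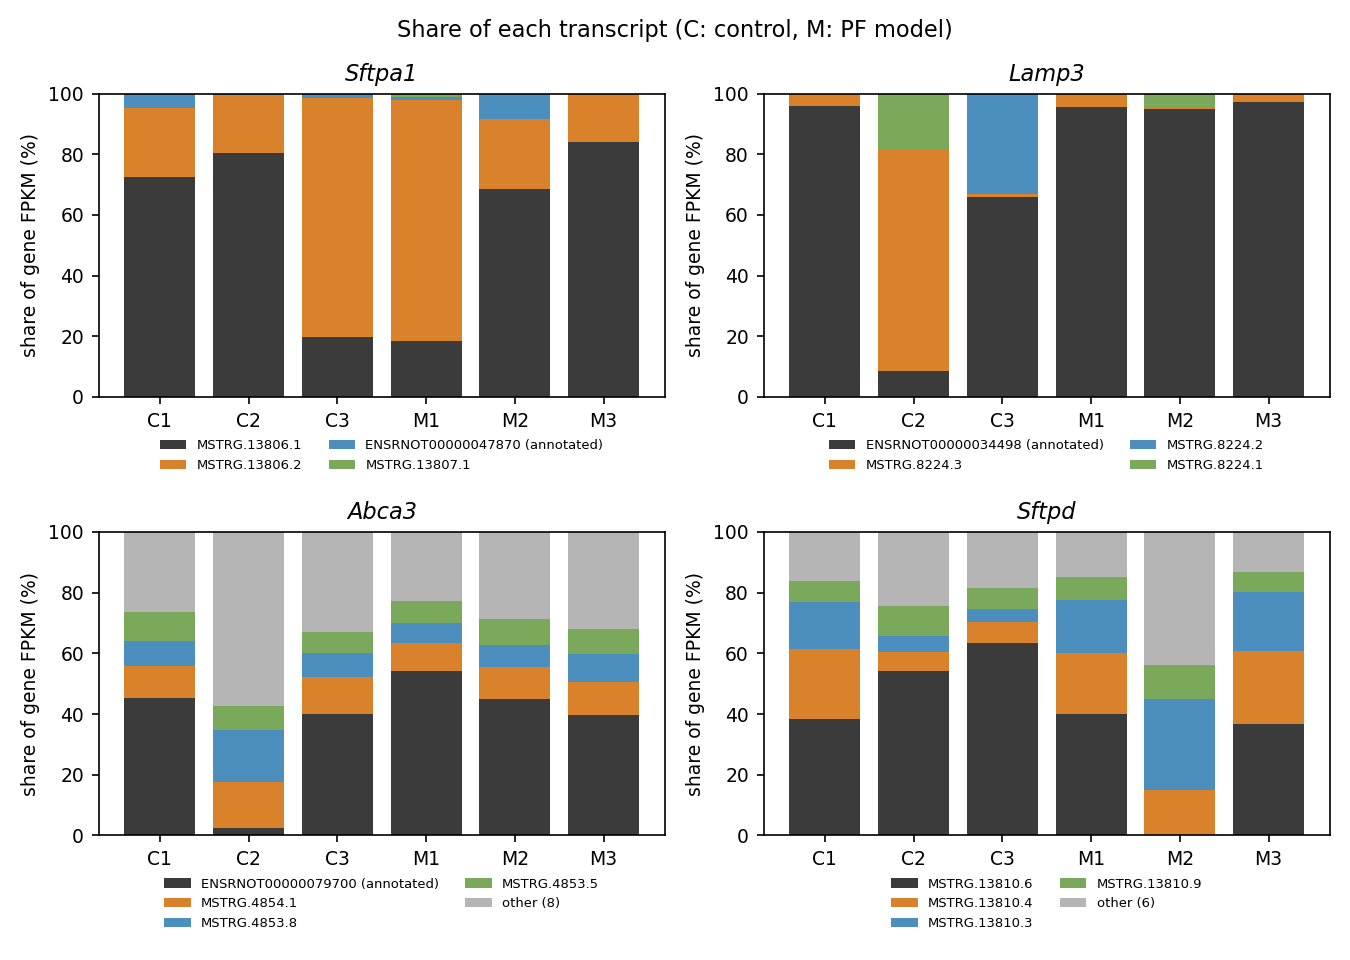
Share of each gene's FPKM taken by its transcripts, in percent from 0 to 100, for Sftpa1, Lamp3, Abca3 and Sftpd in the 3 control (C) and 3 PF model (M) libraries. Sftpa1 switches between a pair of forms in libraries of both groups, the annotated forms of Lamp3 and Abca3 are at 8.61% and 2.54% in control 2, and the leading form of Sftpd is at 0 in PF model 2.

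The other genes kept a similar division in every library. The annotated Sftpb transcript took between 50.9% and 59.3% of the gene's FPKM, that of Lpcat1 between 48.4% and 62.0%, that of Etv5 between 70.4% and 76.4%, and that of Slc34a2 between 92.7% and 98.4%. Over the 8 genes with more than 1 transcript, the adjusted p of the exact permutation tests lay between 0.8 and 0.9. Single-exon transcripts just downstream of Sftpb, Slc34a2, Lpcat1 and Etv5, in a position that the annotation tools class as possible run-on of the polymerase, were each lowest in PF model 3. The one beside Sftpb, MSTRG.25994.1, measured 8.12, 12.8 and 12.0 FPKM in control and 9.89, 14.0 and 3.35 FPKM in PF model. Over the whole table, 39.8% of 1315 transcripts of this class were lowest in PF model 3, against 29.0% of intergenic, 26.8% of intronic and 26.5% of splice-sharing assembled transcripts and 18.3% of annotated ones.

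The other genes of the surfactant system were examined in 7 lists. Of 104 names in them, 100 were found and tested, 0 were called in limma and 5 had an unadjusted p of at most 0.05, against 1.52% and 4.91% of all genes. No adjusted p of limma fell below 0.05 among the 100, the groups were apart in 11, against 10.7% of all genes, and the median difference was 0.057 against -0.0072 over all genes.

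Of 13 genes for processing of surfactant proteins and the lamellar body, 9 had a positive difference and 4 a negative one, with a median of 0.077. Those with a p of at most 0.05 in limma were Ctsh, Atp11a and Cd63, all higher in PF model. Ctsh, the cathepsin that cleaves the precursors of Sftpb and Sftpc, measured 149, 131 and 119 FPKM in control and 159, 157 and 156 FPKM in PF model, a difference of 0.25 with an adjusted p of 0.933 in limma. Cd63, a tetraspanin of lysosome-related organelles, measured 30.7, 30.3 and 30.4 FPKM in control and 37.2, 34.7 and 38.7 FPKM in PF model, with a difference of 0.27 and the same adjusted p. Atp11a, a phospholipid flippase, differed by 0.22. The groups did not overlap in any of these 3 genes. Of the other abundant members, Adgrf5, a receptor that limits the surfactant pool, measured 144 to 150 FPKM in control and 119 to 158 FPKM in PF model, and Prdx6, a peroxiredoxin with phospholipase activity, at most 139 and 163 FPKM.

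Of 23 genes of surfactant phospholipid synthesis, 15 had a positive difference and 8 a negative one, with a median of 0.020. Only Lpin1, a phosphatidate phosphatase, had a p of at most 0.05 in limma, with 6.88, 6.15 and 5.77 FPKM in control and 4.55, 5.60 and 4.66 FPKM in PF model. Its difference was -0.29 and its adjusted p was 0.933. Fasn, the fatty acid synthase, measured 37.8, 35.4 and 39.4 FPKM in control and 38.7, 38.6 and 50.0 FPKM in PF model. Srebf2, a regulator of sterol synthesis, measured 61.6 to 63.6 FPKM in control and 60.5 to 69.8 FPKM in PF model, and Acly, which supplies acetyl-CoA, 34.1 to 41.3 and 40.2 to 47.7 FPKM. Pcyt1a, which makes the CDP-choline for phosphatidylcholine, had groups that were apart, at 11.3 to 12.4 FPKM in control and 12.6 to 14.2 FPKM in PF model, with a p of 0.0937 in limma.

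Of 13 transcription factors of type 2 cells, 4 had a positive and 9 a negative difference, with a median of -0.059 and none with a p of at most 0.05 in limma. Nkx2-1 measured 7.48, 9.90 and 41.4 FPKM in control and 8.53, 10.8 and 5.01 FPKM in PF model. Control 3 alone was high, and the difference of -0.85 ± 0.62 (SE) had an adjusted p of 0.933 in limma. Id2, an inhibitor of helix-loop-helix factors, measured 18.2 to 19.5 FPKM in control and 11.0 to 20.9 FPKM in PF model. Cebpa, a leucine zipper factor, was apart, with 13.6 to 14.2 FPKM in control and 14.7 to 17.4 FPKM in PF model, and a p of 0.0816 in limma. Of 11 genes of Fgfr2 signalling, which acts upstream of Etv5, 8 had a positive and 3 a negative difference, with a median of 0.087. None of the 11 had a p of at most 0.05 in limma, and Fgfr2 itself measured 23.7 to 30.0 FPKM in control and 26.2 to 29.5 FPKM in PF model. The kinase Mapk3 measured 43.4 to 56.1 and 48.0 to 68.2 FPKM, and the adaptor Shc1 20.9 to 22.5 and 22.0 to 23.8 FPKM.

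Of 17 other type 2 cell genes, 14 had a positive and 3 a negative difference, with a median of 0.085 and none with a p of at most 0.05 in limma. The most abundant was Lyz2, a lysozyme shared with macrophages, at 4643 to 5551 FPKM in control and 4434 to 6127 FPKM in PF model. Cd74, the invariant chain of MHC class II, measured 361 to 456 and 396 to 509 FPKM, and Wfdc2, a secreted protease inhibitor, 70.1 to 90.8 and 73.7 to 122 FPKM. Of 8 genes by which macrophages clear surfactant, 5 had a positive and 3 a negative difference, with a median of 0.022 and again none with a p of at most 0.05. These included Plin2, a lipid droplet protein, at 27.5 to 29.6 FPKM in control and 29.1 to 30.4 FPKM in PF model. Abcg1, a sterol exporter, measured 16.8 to 22.2 and 17.1 to 34.3 FPKM, and Lpl, a lipase, at most 27.0 and 22.5 FPKM.

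Of 15 genes of type 2 cell progenitors and the transitional state, 11 had a positive and 4 a negative difference, with a median of 0.17. Their summed FPKM was 201 to 219 in control and 232 to 239 in PF model, so that the sums of the groups did not overlap. The groups were apart in 4 of the 15 genes, against 10.7% of all genes. Krt8, Lgals3 and Ndrg1 of these were higher in PF model. Hbegf was lower, at 3.50 to 3.94 FPKM in control and 3.05 to 3.44 FPKM in PF model. The summed FPKM of the other 6 lists, and of the 10 marker lists below, overlapped between the groups. Sums were not tested, and sums apart in 1 list are not by themselves a result, since the groups were apart in 10.7% of all genes. None of the 15 was called. Among these Lgals3, a galectin, had a p of 0.0272 and an adjusted p of 0.933 in limma, with 26.3, 21.6 and 26.6 FPKM in control and 28.8, 31.0 and 31.4 FPKM in PF model. Krt8, a keratin of simple epithelium, measured 24.1 to 25.7 FPKM in control and 25.8 to 34.1 FPKM in PF model, with a p of 0.0919 in limma. Krt19, another keratin, was the most abundant, with 37.3 to 51.0 FPKM in control and 46.0 to 54.5 FPKM in PF model.

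**Figure D4:**
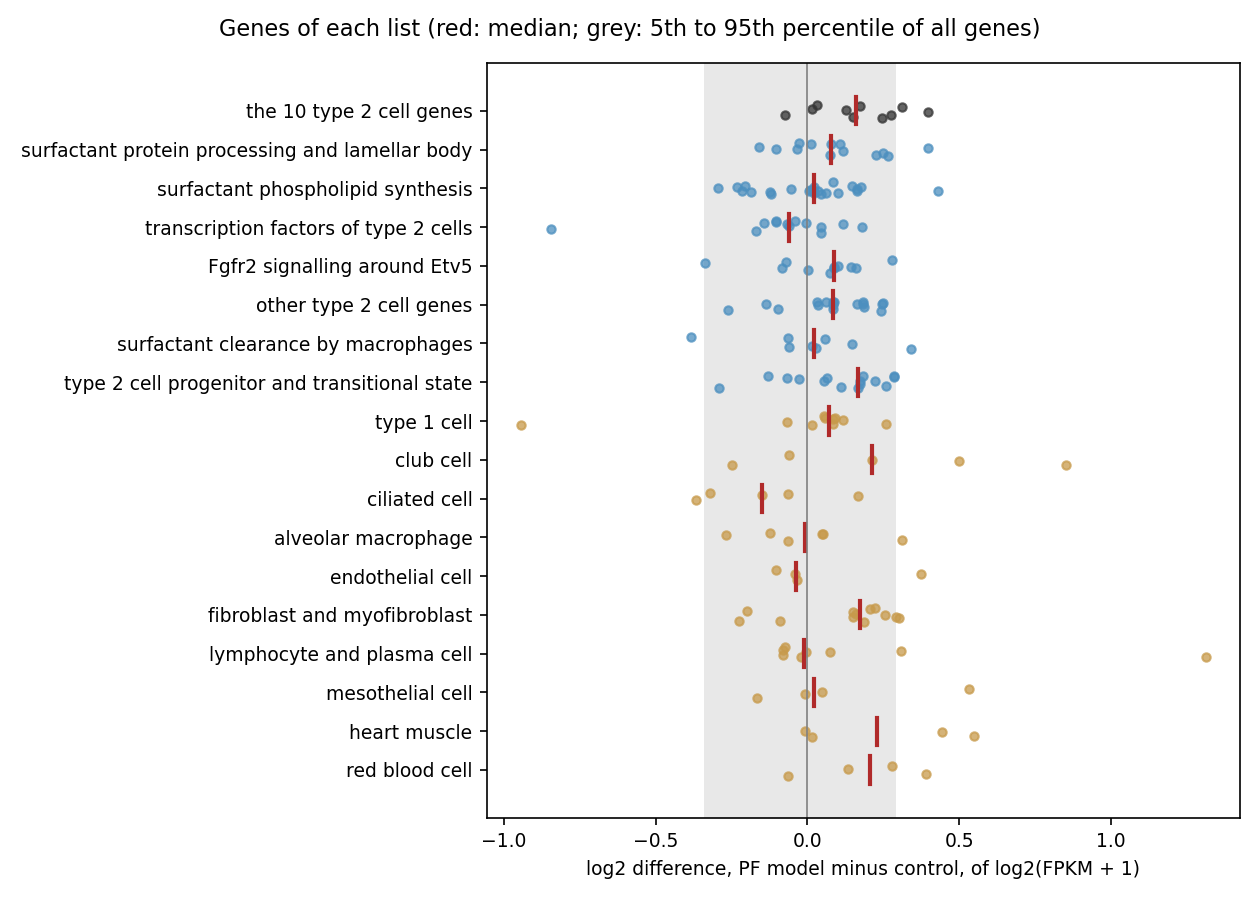
Difference on the log2(FPKM + 1) scale, PF model minus control, of each gene of the lists, with a red line at the median and the range from the 5th to the 95th percentile of all genes in grey (-0.34 to 0.29). The 10 type 2 cell genes in black have a median of 0.16, and most points of every surfactant list in blue lie within the grey band.

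Markers of other cell types had summed levels that overlapped between the groups. Of 68 names in 10 marker lists, 64 were found. The summed FPKM of 10 type 1 cell markers was 1180 to 1456 in control and 1282 to 1488 in PF model, and that of 6 club cell markers was 4630 to 7934 in control and 4176 to 6530 in PF model. Ranges overlapped likewise for markers of ciliated cells (142 to 159 and 150 to 194), alveolar macrophages (48.0 to 71.6 and 43.1 to 70.1) and endothelial cells (276 to 396 and 321 to 360). They also overlapped for markers of lymphocytes and plasma cells (45.8 to 59.5 and 37.2 to 67.1), mesothelium (6.22 to 11.3 and 7.42 to 13.5), heart muscle (6.88 to 11.4 and 6.41 to 27.7) and red blood cells (2051 to 2774 and 2323 to 3636). For 12 fibroblast and myofibroblast markers the sum was 465 to 551 in control and 547 to 669 in PF model. Col3a1, the chain of type III collagen, was the one of these 12 with a p of at most 0.05 in limma, at 154 to 178 FPKM in control and 189 to 233 FPKM in PF model, with an adjusted p of 0.933. No marker found was at 0 in all 6 libraries, and the part of other cell types in the levels of the 10 genes was not tested.

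Of the 64 markers found, 2 were called in limma, against 1.52% of all genes. Bpifa1 and Myh6 of the 64 were not above 0 in enough libraries to be tested. Of the 10 type 1 cell markers, 8 had a positive difference and 2 a negative one, with a median of 0.071. Akap5 from this list was called as lower and measured 52.1, 53.1 and 24.6 FPKM in control and 17.2, 22.0 and 23.7 FPKM in PF model, with an adjusted p of 0.933. Of the 8 lymphocyte and plasma cell markers, 3 had a positive difference and 5 a negative one, with a median of -0.013. Tnfrsf17, the plasma cell receptor BCMA, was called as higher and measured 0.194, 0.124 and 0.145 FPKM in control and 0.298, 0.473 and 0.530 FPKM in PF model, with the same adjusted p.

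Circular RNAs formed by back-splicing had few reads at these loci. Of 5216 circular RNAs in the deposited counts, 11 were assigned to 6 of the 10 genes, with 26 of 14904 back-splice reads. Over all named genes, 13.3% were assigned at least 1. By library these were 4, 7 and 1 reads in control and 2, 5 and 7 reads in PF model, which is too few for a test. Abca3 had 10 of the reads and Sftpb 9, while Sftpd, Lpcat1, Napsa and Etv5 had none. Of the 11, 7 were exonic and 4 intronic. The deepest had 7 reads each, an exonic circle of 3 exons of Abca3 and an intronic circle of Sftpb. Sftpc, the most abundant linear RNA of the 10, had a single back-splice read.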

How the data were processed

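Whole lung RNA of 3 control and 3 PF model rats was analysed, with groups taken from the labels. For linear RNA the authors removed adapters (Cutadapt), aligned reads to the rat genome (Bowtie2 and Tophat2 in the methods, HISAT2 and TopHat in the submitters' processing notes), merged the StringTie assemblies and deposited an FPKM per transcript and library. Coverage was deposited beside it, a signal of mean depth per base without scaling for library size. For circular RNAs the authors deposited counts of back-splice reads, and a scaled signal of them that was not used. The genome build is not given in the sources used here, so only chromosomes are given, except for the RefSeq promoters. The ratio of coverage to FPKM, divided by a read length of 150 bases, gave an implied total of 42610900 to 48854100 per library. Whether this total counts reads or fragments was not established. Reads were estimated from coverage, transcript length and a read length of 150 bases.

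FPKM were summed per gene name, since transcripts of a gene were assembled separately. Genes or transcripts above 0 in at least 3 libraries were compared with limma 3.58.1 (with trend, R 4.3.3) on log2(FPKM + 1), over all features at once, two-sided, with Benjamini-Hochberg adjustment. Calls used the study's thresholds, p of 0.05 or less (not adjusted) and a log2 ratio of group means of 1 or more. Shares of transcripts were compared with exact permutation tests. In data simulated for the gene comparison, with 200 of 19606 genes changed, limma found 78% of changes of 1 log2 unit and 99% of changes of 2 by these thresholds, beside 315 false calls. For transcripts, with 200 of 64658 changed, it found 68% and 91%, beside 2165 false calls. All changed genes and transcripts had a mean of at least 5 FPKM, and each varied independently between libraries. These rates therefore do not cover lower levels or shifts that many genes share in a library.

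The 10 genes and the gene lists were chosen with earlier results of these data known. The naming rule covered the 10 genes, their transcripts with a mean of at least 1 FPKM or past a threshold, and the 5 genes closest to the mean course. It also covered the called genes and the 3 most abundant of each surfactant list. Of the 43 transcripts with a mean of at least 1 FPKM only a part is named, so the named transcripts are a selection. The marker lists are given by their sums, and the rule's 3 most abundant of each are points of the plot of lists. Cd63, Atp11a, Lpin1, Pcyt1a, Ndrg1, Hbegf, Bpifa1, Scgb3a1, Muc5b, Myh6, Lox and MSTRG.13810.10 lie outside this rule. They were named after their values were seen. Of the list names, 4 were matched through RefSeq synonyms, and Cxcl15, Marco, Cd36, Sprr1a and 4 markers were not analysed here. The software was Python 3.11.15 with scipy 1.17.1, numpy 2.4.6, pandas 2.3.3 and matplotlib 3.10.9.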

Additional observations from a re-analysis of the deposited data

How the results depend on the processing

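None of the 10 genes was called, and none reached an adjusted p of 0.05 in limma, under any of the 17 alternatives (pseudocounts, filters, scalings, limma without trend, an F test, a replicate block, sums weighted by length, annotated transcripts only, and each library left out). The count of called transcripts of these genes was 1 to 3 when a library was left out, with 3 without control 1. Over all genes, 298 calls became 84 with a mean of at least 1 FPKM and 519 with annotated transcripts only. Over all transcripts, 1934 calls became 1066 with a mean of at least 1 FPKM and 1180 with the F test. The median of all genes shifted from -0.0072 to 0.048 with TPM and to 0.0068 with median scaling. Deviations from the group means correlated at 0.065, 0.028 and -0.078 between same-numbered libraries. Between differently numbered libraries they correlated at -0.13 to 0.096. These values show no pairing by replicate number, but they cannot exclude one. In the fit with a replicate block, 312 genes, 1943 transcripts, 0 of the 10 genes and 1 of their transcripts were called.

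Some differences changed sign. With annotated transcripts only, that of Sftpd was -0.11 and that of Sftpb -0.035, with TPM that of Etv5 was 0.0090, and that of Lamp3, 0.40 as reported, was -0.13 when weighted by length. For transcripts, TPM gave 0.023 for MSTRG.4854.1 and 0.050 for ENSRNOT00000014505, and median scaling gave 0.015 for the latter. With a library left out, the difference lay from -0.057 to 0.14 for Sftpd, -0.017 to 0.083 for Sftpb, -0.028 to 0.12 for MSTRG.8162.2, -0.016 to 0.095 for MSTRG.8163.1, -0.60 to 0.038 for MSTRG.468.1, -0.041 to 0.27 for MSTRG.469.2, -0.47 to 0.83 for MSTRG.13806.1, -0.57 to 0.78 for MSTRG.13806.2, -0.089 to 0.035 for ENSRNOT00000014505 and -0.78 to 0.12 for MSTRG.25994.1. The difference in the share of the leading transcript lay from -19.5 to 18.8 percentage points for Sftpa1, -0.13 to 2.72 for Slc34a2 and -2.30 to 0.72 for Etv5. The cause of these changes of sign was not tested. Akap5 was not called with TPM, with the F test, or without control 1, control 2 or PF model 1. Tnfrsf17 lies below 1 FPKM.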
